A study of Homo sapiens with 4 samples.

Results

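Mitotic cells of the ovarian carcinoma line OVCAR5 were taken as the cells with the highest summed level of 10 genes of late G2 and mitosis, and their response to cytokines was compared with that of cells low in the same genes. The cells were chosen by measured values: a score was formed for each cell from the UMIs (unique molecular identifiers, each standing for 1 captured RNA molecule) of CCNB1, CDC20, PLK1, CENPE, CENPF, UBE2C, AURKA, TPX2, HMMR and DLGAP5 in each 1000000 gene UMIs, the unit CPM. Cells entered with at least 1000 genes, at most 20% mitochondrial UMIs and KRT81 under 500 CPM, which left 6170 of 10660 barcodes. The top 10% were 617 cells, called mitotic cells here, and the lower 50% were 3085 cells, called low-score cells. The other 2468 cells lay between them. RNA of these genes is present in G2 as well as in mitosis, so the score does not tell a cell in G2 from one in division.

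The line had been exposed in culture to supernatant from tumor cells grown together with T cells. Per the labels there were 24 conditions: undiluted supernatant (SN), its dilutions 1/5, 1/25, 1/125 and 1/625, and unstimulated cultures, each for 2, 6, 12 and 24 h. All were run as a single pool on a droplet platform that reads the 3′ ends of RNA from single cells, with 2 gene-expression and 2 cell-hashing libraries and 10 hashtag antibodies (HTO1 to HTO10) that mark cultures by pairs of tags. No label ties a tag pair to a condition, so each of the 24 tag pairs in use stands for a culture with no dose or time attached, and no pair is a replicate of another.

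A cell that prepares to divide passes from DNA synthesis (S phase) through G2 into mitosis, and genes of the spindle, the centromere and the cyclin B kinase are transcribed late in that course and their proteins are degraded as mitosis ends. Interferon gamma, which T cells release, acts through JAK kinases to raise IRF1, guanylate-binding proteins, the chemokines CXCL9 and CXCL10 and antigen presentation by MHC class I and II. TNF, also a T cell product, acts through NF-κB to raise inhibitors such as NFKBIA and TNFAIP3, the survival gene BIRC3 and chemokines such as CXCL8. Transcription is known to be reduced while chromosomes are condensed.

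The promoters of the score genes show the sequence elements that late cell cycle genes are known for, the CHR element (TTTGAA or TTCGAA) and the CCAAT box, and 4 are given here to show how they differ in both. Windows run from 250 bases before to 50 bases after the annotated start (RefSeq, GRCh38.p14), are written 5′ to 3′ on the gene's strand, and carry matches in capitals, also where the match reads on the opposite strand. PLK1 (chr16:23678639-23678938, plus strand) held 1 CHR element and 1 CCAAT box, CDC20 (chr1:43358731-43359030, plus strand) 2 and 2, DLGAP5 (chr14:55191536-55191835, minus strand) 3 and 2, and CCNB1 (chr5:69166900-69167199, plus strand) 0 and 2.
PLK1: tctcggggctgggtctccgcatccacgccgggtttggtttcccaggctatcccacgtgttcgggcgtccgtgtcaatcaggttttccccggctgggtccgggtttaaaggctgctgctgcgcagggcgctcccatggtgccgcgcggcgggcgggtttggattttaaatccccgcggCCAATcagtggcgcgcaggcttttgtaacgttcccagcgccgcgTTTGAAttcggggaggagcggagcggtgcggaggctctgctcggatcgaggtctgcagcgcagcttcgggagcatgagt
CDC20: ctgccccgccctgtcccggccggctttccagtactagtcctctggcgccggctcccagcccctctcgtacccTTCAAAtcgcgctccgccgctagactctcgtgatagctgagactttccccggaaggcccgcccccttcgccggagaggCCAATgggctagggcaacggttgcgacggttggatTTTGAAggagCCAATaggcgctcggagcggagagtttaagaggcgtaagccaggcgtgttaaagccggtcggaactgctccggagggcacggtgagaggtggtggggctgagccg
DLGAP5: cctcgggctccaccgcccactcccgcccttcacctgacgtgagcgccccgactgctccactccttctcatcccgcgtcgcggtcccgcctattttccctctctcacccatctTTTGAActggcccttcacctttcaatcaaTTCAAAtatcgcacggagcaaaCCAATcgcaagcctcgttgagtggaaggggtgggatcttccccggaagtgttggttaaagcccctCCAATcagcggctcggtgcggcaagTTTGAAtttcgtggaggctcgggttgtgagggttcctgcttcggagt
CCNB1: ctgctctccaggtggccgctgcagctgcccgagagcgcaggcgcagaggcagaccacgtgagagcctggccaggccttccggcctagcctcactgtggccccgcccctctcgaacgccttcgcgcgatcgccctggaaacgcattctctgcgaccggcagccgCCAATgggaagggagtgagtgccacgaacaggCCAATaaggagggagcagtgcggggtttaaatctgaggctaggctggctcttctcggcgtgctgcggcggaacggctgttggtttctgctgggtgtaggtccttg

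The CHR letters were found, on either strand, in 5 of the 7 score genes with a window in the table and in 46 of 63 further genes of G2 and mitosis (73.0%), against 2 of 35 S phase genes, 3 of 21 interferon gamma response genes and 16.6% of all 27305 windows. The CCAAT letters were found in 6 of 7 score genes and 45 of 63 further genes of G2 and mitosis (71.4%), against 22 of 35 S phase genes, 8 of 21 interferon gamma response genes and 35.7% of all windows. Both elements stood in 37 of the 63 and in 6.58% of all windows. AURKA, TPX2 and UBE2C were not matched. A match describes letters in the window only.

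The score values show where the line between the classes was drawn. The median score was 4701 CPM in mitotic cells (72 UMIs of the 10 genes, lowest 8, highest 198), against 945 CPM in low-score cells (11 UMIs). The last mitotic cell had 4121.302 CPM and the first cell outside had 4121.298 CPM, and 519 cells lay within 10% of that level, of which 234 were mitotic cells. The class is therefore the upper end of a range and not a separate group. A mitotic cell had a median of 10 of the 10 genes detected, and a low-score cell 6.

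Each score gene is given as a description, since these values chose the cells. Over 22 tag pairs with at least 5 cells of each class, AURKA, a kinase of the centrosome, ran from 716 to 954 CPM (median 825) in mitotic cells and from 31.8 to 125 CPM (median 108) in low-score cells. CCNB1, the cyclin of the mitotic kinase, ran from 550 to 743 CPM (median 670) in mitotic cells and from 36.9 to 123 CPM (median 94.5) in low-score cells. PLK1, a kinase of mitotic entry, ran from 226 to 360 CPM (median 277) in mitotic cells and from 6.54 to 52.6 CPM (median 41.4) in low-score cells. The classes did not overlap in any of these 3 genes, and this follows from the choice of cells. CDC20, an activator of the anaphase-promoting complex, came closest, at 230 to 547 CPM in mitotic cells and 34.1 to 205 CPM in low-score cells.

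**Figure D1:**
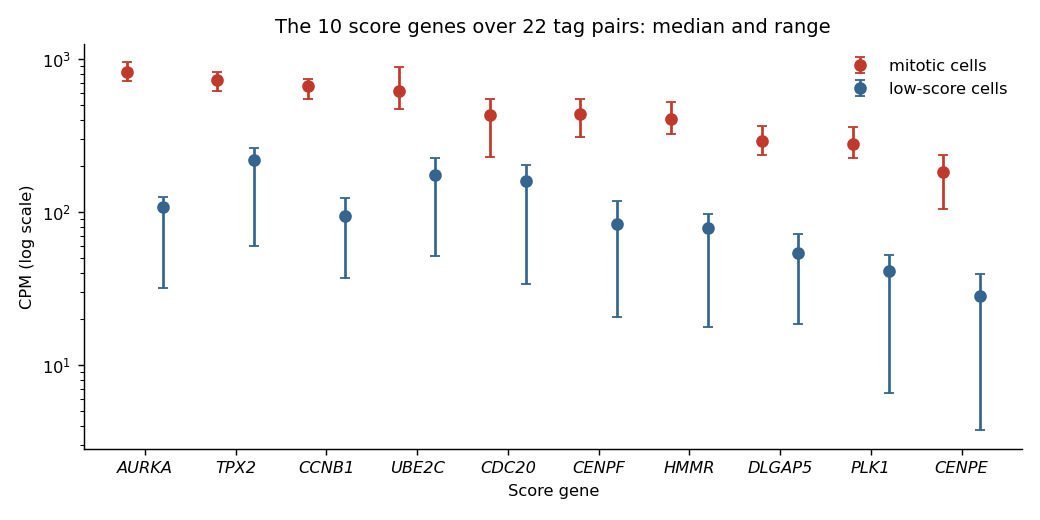
The 10 genes of the score, each with its median (point) and lowest to highest value (bar) over 22 tag pairs, in CPM on a log axis, in mitotic cells (red, left) and low-score cells (blue, right). AURKA is the highest in mitotic cells with a median of 825 CPM and CENPE the lowest with 184 CPM, and the ranges do not overlap for any gene because the genes chose the cells.

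Other cell cycle genes followed the score, which is also no independent test. The summed level of 73 further genes of G2 and mitosis ran from 15597 to 18942 CPM in mitotic cells and from 2534 to 8589 CPM in low-score cells, and was higher in mitotic cells in 22 of 22 tag pairs. KIF20A, a kinesin of cytokinesis, had 46.8 to 145 CPM (median 93.2) in mitotic cells and 1.4 to 21.5 CPM (median 9.33) in low-score cells. TOP2A, the topoisomerase that separates sister DNA, had 660 to 1003 CPM (median 818) in mitotic cells and 52.4 to 355 CPM (median 275) in low-score cells. MYBL2, a transcription factor active from S phase on, ran the other way, with a median of 84.9 CPM in mitotic cells and 118 CPM in low-score cells.

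The S phase genes were low in mitotic cells. Their summed level ran from 1255 to 2566 CPM in mitotic cells and from 1276 to 5666 CPM in low-score cells and was lower in mitotic cells in 22 of 22 tag pairs, although HTO3/HTO9 differed by only -0.02 on the log2 scale. HIST1H4C, a replication-dependent histone, had a median of 123 CPM (83.5 to 271) in mitotic cells and 1007 CPM (165 to 1178) in low-score cells. HIST1H1D, a linker histone, had a median of 5.47 CPM (0 to 47.9) in mitotic cells and 118 CPM (31.3 to 175) in low-score cells. S phase RNA was thus highest in the low-score class, which is not a class of resting cells. The median per cell was 2071 CPM in mitotic cells, 2641 CPM in the cells between the classes and 4221 CPM in low-score cells.

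Epithelial markers stood at unequal levels. The 8 on the list summed to 3180 CPM in mitotic cells and 3013 CPM in low-score cells, each class pooled over cultures. Within tag pairs the list was higher in mitotic cells in 8 of 22 and lower in 14 (median log2 difference -0.06). KRT18, EPCAM and CDH1 are given here and do not stand for the list, whose calls are given further below. KRT18, a simple-epithelium keratin, stood at 1581 CPM in the mitotic cells pooled and 1547 CPM in the low-score cells pooled. EPCAM, an epithelial adhesion protein, stood at 31.4 CPM in mitotic cells and 37.3 CPM in low-score cells, while CDH1 was near 0 in both (0.103 and 0.197 CPM). Of the T cell markers, CD3E, CD3G, CD2, PTPRC, NKG7 and GZMB had 0 UMIs in both classes. IL7R was the only T cell marker with counts to test, at 96.0 CPM in mitotic cells and 144 CPM in low-score cells. All 10 on the list, CD3D, CD8A and TRAC included, summed to 96.1 CPM in mitotic cells and 144 CPM in low-score cells. Within tag pairs this sum was lower in mitotic cells in 20 of 22. In the gene test described below IL7R was called lower, with a log2 fold change of -0.53.

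The share of mitotic cells differed widely between cultures. A tag pair was found for 5159 kept cells, of which 569 were mitotic (11.0%), and the share per pair had a median of 11.0%. HTO7/HTO10 had the highest share, 28.3% (56 of 198 cells, exact binomial 95% interval 22.1 to 35.1%), followed by HTO3/HTO8 with 22.0% and HTO6/HTO10 with 19.4%. HTO6/HTO8 had the lowest, 0.629% (1 of 159 cells, interval 0.0159 to 3.45%), followed by HTO7/HTO8 with 2.27% and HTO4/HTO9 with 2.76%. With cells thinned to 3000 UMIs HTO3/HTO8 was the highest at 23.1%, against 22.8% for HTO7/HTO10. HTO6/HTO8 then had 5.13% (8 of 156 cells), and the lowest was HTO3/HTO9 at 1.64%. The order of the pairs at either end thus changed with thinning, and with the top 5% of cells HTO3/HTO8 was again the highest. The intervals cover counting error only, and with 1 culture a pair the difference between pairs has no replicate check.

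The 6 pairs with the lowest shares stood highest in interferon response genes, and with thinned cells they were again the 6 lowest. This set did not hold in every setting. With the top 5% of cells HTO8/HTO9 (1.74%) was below HTO5/HTO9 (1.95%). With a stricter cell filter (at least 2000 genes, at most 10% mitochondrial UMIs) HTO5/HTO8 had 7.5% (3 of 40 cells), above HTO8/HTO9 at 4.92%. Summed over 33 interferon gamma response genes and all kept cells, HTO6/HTO8 stood at 12724 CPM, HTO7/HTO8 at 9290 CPM and HTO4/HTO9 at 14703 CPM. HTO3/HTO9, HTO5/HTO8 and HTO5/HTO9, with shares of 3.69, 3.88 and 4.30%, stood at 19743, 16992 and 9648 CPM. No other pair was above 7694 CPM. The pairs with little response were mixed in their shares. HTO7/HTO10 stood at 624 CPM with its share of 28.3%, but HTO4/HTO8 at 607 CPM had a share of 9.7% and HTO2/HTO9 at 735 CPM one of 12.8%. HTO8/HTO10 was high in both interferon and NF-κB genes (7694 and 4950 CPM) and still had a share of 12.6%.

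The cells of the low-share pairs also differed in other ways, whose part in the share was not tested. HTO3/HTO9 and HTO5/HTO8 had the lowest S phase level in cells outside the mitotic class, 1361 and 1636 CPM, against 2807 to 4615 CPM in the other 22 pairs. HTO3/HTO9 also had the lowest median depth, 9389 UMIs, and the highest median mitochondrial share, 13.8%, while HTO7/HTO10 had the lowest mitochondrial share, 8.70%. Low-score cells made up 88.5% of HTO3/HTO9 and 28.3% of HTO7/HTO10.

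**Figure D2:**
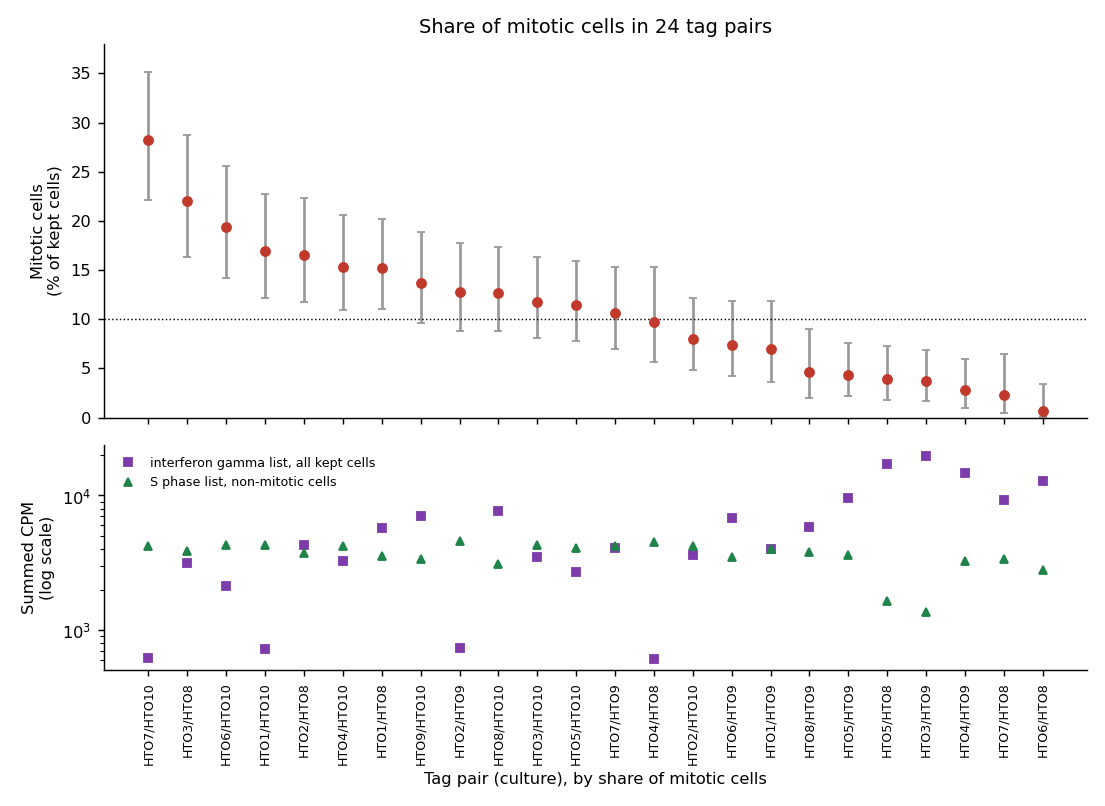
Share of mitotic cells among the kept cells of each of 24 tag pairs (upper panel, percent, bars are exact binomial 95% intervals, dotted line at the 10% that the rule takes over all cells) above the summed CPM of the interferon gamma list in all kept cells (squares) and of the S phase list in cells outside the mitotic class (triangles, log axis). The 6 pairs at the right, with shares of 4.30% or less, have the highest interferon levels, and HTO3/HTO9 and HTO5/HTO8 the lowest S phase levels.

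Because the cultures gave unequal numbers of mitotic cells, the response of the pooled class mixed culture with cell cycle. Over the 24 pairs pooled, the interferon gamma list stood at 4083 CPM in mitotic cells and 7145 CPM in low-score cells, a log2 difference of -0.81. When the low-score cells of each pair were weighted by that pair's share of the UMIs of mitotic cells, they stood at 4012 CPM, a log2 difference of 0.03. The MHC class II list gave 205 CPM in mitotic cells against 672 CPM in low-score cells, or 242 CPM in weighted low-score cells, a log2 difference of -1.67 pooled and -0.23 weighted. For NF-κB genes the log2 difference was -0.30 pooled and 0.10 weighted. All comparisons below are made within tag pairs.

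**Figure D3:**
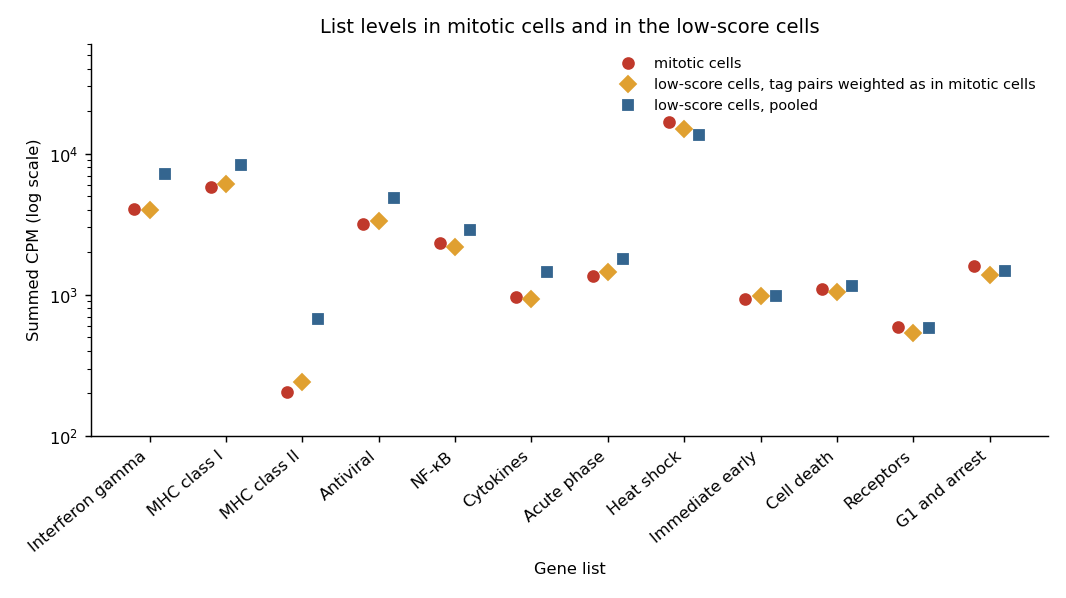
Summed CPM (log axis) of 12 response lists in the mitotic cells of 24 tag pairs (circles), in their low-score cells weighted by tag pair as in mitotic cells (diamonds) and in their low-score cells pooled (squares). For the interferon gamma list the values are 4083, 4012 and 7145 CPM, so that weighting brings the low-score cells next to the mitotic cells.

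In the median culture, mitotic cells carried the interferon response at a level near that of low-score cells. The interferon gamma list ran from 513 to 17992 CPM over the 22 pairs in mitotic cells (median 4083), a ratio of 35.0, and from 592 to 20542 CPM in low-score cells (median 4177), a ratio of 34.7. It was higher in mitotic cells in 14 pairs and lower in 8, with a median log2 difference of 0.06 (-0.79 to 0.36). The lowest difference was in HTO7/HTO10, where 1 low-score cell held 33.4% of the list's UMIs of its class. The NF-κB list ran from 763 to 6036 CPM in mitotic cells and from 757 to 6738 CPM in low-score cells, higher in mitotic cells in 15 pairs and lower in 7.

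**Figure D4:**
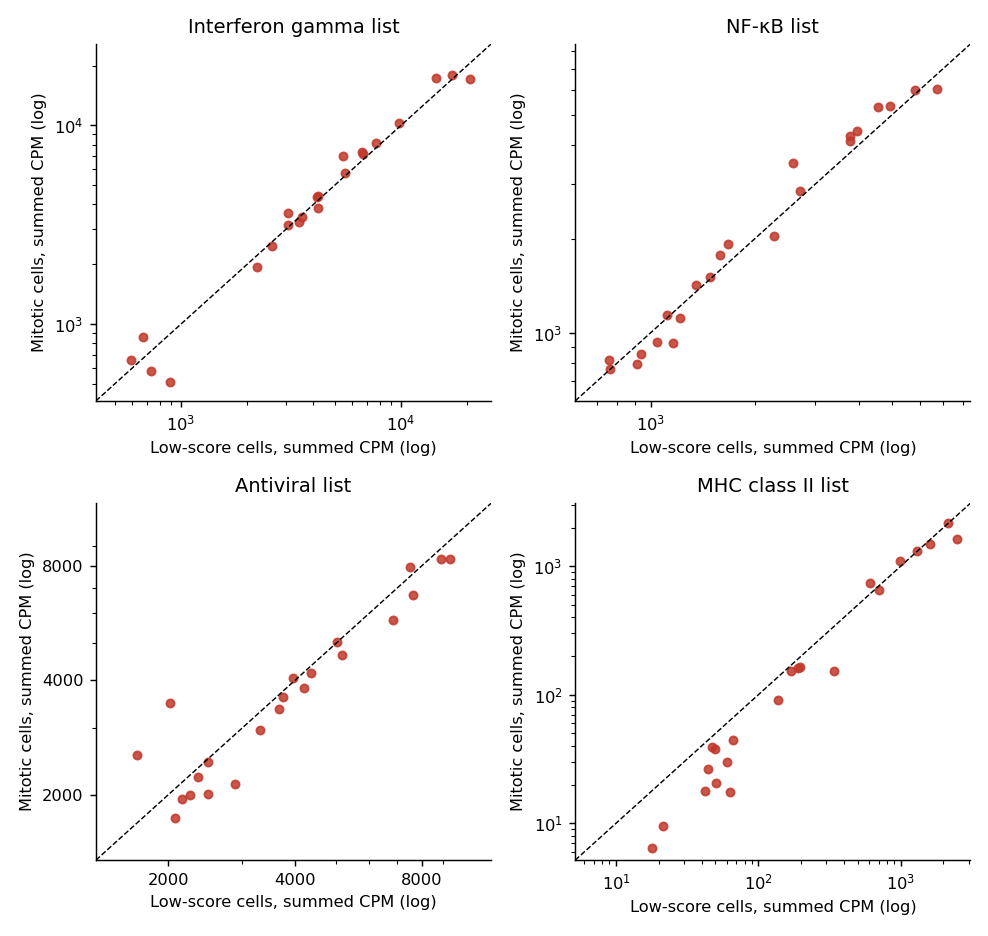
Summed CPM of 4 response lists in mitotic cells (vertical) against low-score cells (horizontal) of the same tag pair, both on log axes, with 1 point for each of 22 pairs and a dashed line at equal levels. Interferon gamma and NF-κB points lie along the line, MHC class II points lie below it in 18 of 22 pairs, and antiviral points lie above it in 5 of 22 pairs, farthest in HTO2/HTO9 and HTO4/HTO8.

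Genes were then tested one at a time, with summed counts of each class and the tag pair as a block (edgeR quasi-likelihood test, Benjamini-Hochberg adjustment, called at an adjusted p under 0.05). Of 7164 genes outside the score, 1161 were higher in mitotic cells (16.2%) and 1199 lower (16.7%), 32.9% in all, and the median log2 fold change was -0.01. Of 121 tested genes in the 7 lists of cytokine response, 14 were higher and 25 lower (32.2%), a share near that of all genes. With the tag pair as block, the p-values rest on the spread of the class difference over these cultures, each measured once. They do not count how many cultures agree in direction.

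Among interferon gamma response genes, 3 of 29 tested rose (GBP4, SOCS3, APOL6) and 4 fell (CXCL9, CXCL11, CD274, IL18BP). The share called was 24.1%, against 32.9% of all genes. CXCL9, a chemokine that draws T cells (chr4:76001275-76007488, GRCh38), had 0 to 651 CPM (median 5.96) in mitotic cells, with 0 UMIs in 4 pairs, and 0.957 to 1372 CPM (median 14.0) in low-score cells. The ranges overlapped, and it was lower in mitotic cells in 19 of 22 pairs, with a log2 fold change of -1.16 ± 0.176 (SE, adjusted p = 1.47e-07 by edgeR). In HTO5/HTO8 it had 34.4 CPM in mitotic cells (4 UMIs) and 632 CPM in low-score cells (1232 UMIs). It had too few counts to be tested with the top 5% of cells, with thinned cells, with the stricter cell filter or with only the pairs of at least 10 mitotic cells, and its log2 fold change was -2.41 without the block.

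Its neighbour CXCL10 (chr4:76021117-76023497) did not pass the test. It had 11.8 to 4856 CPM (median 142) in mitotic cells and 12.4 to 4085 CPM (median 178) in low-score cells, higher in 11 pairs and lower in 11, with a log2 fold change of -0.13 ± 0.096 (adjusted p = 0.31 by edgeR). The 2 chemokine genes were thus not alike in this comparison, though the difference between them was not tested. IRF1, the factor that carries the response onward, had a median of 963 CPM in mitotic cells and 951 CPM in low-score cells and did not pass either (adjusted p = 0.1 by edgeR). APOL6, an apolipoprotein L gene, rose by 0.35 ± 0.054, with a median of 631 CPM in mitotic cells and 416 CPM in low-score cells. GBP4, a guanylate-binding protein, rose by 0.34 ± 0.075, but was not called with DESeq2, with thinned cells or with the top 5% of cells (adjusted p = 0.173, 0.0808 and 0.255).

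Of 15 tested MHC class I genes, HLA-E rose, 5 fell (PSMB8, PSMB9, PSMB10, PSME2, B2M) and 9 did not pass. The list had 40% called against 32.9% of all genes, and a median log2 fold change of -0.06 against -0.01. PSMB9, an immunoproteasome subunit, had a median of 206 CPM (26.7 to 987) in mitotic cells and 243 CPM (43.1 to 907) in low-score cells, with a log2 fold change of -0.25 ± 0.051 (adjusted p = 7.61e-05 by edgeR). B2M, the invariant subunit of class I molecules, had a median of 2610 CPM in mitotic cells and 2791 CPM in low-score cells and fell by 0.15 on the log2 scale. PSME2, a proteasome activator, fell by 0.11 on the log2 scale, but its log2 fold change was 0.061 and not called with the stricter cell filter, and without HTO3/HTO9 it was not called (-0.10, adjusted p = 0.053). It also lost its call in 6 further of 13 alternatives, among them the top 5% of cells (adjusted p = 0.321), thinned cells (0.214) and no TMM scaling (0.154).

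MHC class II genes had few UMIs in most cultures, and only 2 of 13 could be tested. The summed level of 13 genes was lower in mitotic cells in 18 of 22 pairs, with a median log2 difference of -0.40. The median cell was higher in mitotic cells in 7 pairs and lower in 5, and in the other pairs it was 0 in both classes. CD74, the invariant chain (chr5:150401637-150412929), had 0 to 1205 CPM (median 72.7) in mitotic cells and 7.88 to 1673 CPM (median 98.0) in low-score cells. It was lower in mitotic cells in 19 of 22 pairs, by a log2 fold change of -0.36 ± 0.078 (adjusted p = 1.44e-04 by edgeR). CTSS, a protease of antigen processing and the only other tested member, had a log2 fold change of -0.15 and did not pass.

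Of 31 antiviral genes tested, 35.5% were called, near the 32.9% of all genes. IFIT1 and IFIT3, which bind foreign RNA or its complexes, rose, while 9 fell (ISG15, TNFSF10, LAP3, UBE2L6, OAS3, IFI27, ISG20, IFI35, BST2). ISG15, a ubiquitin-like protein, had a median of 360 CPM (157 to 1385) in mitotic cells and 472 CPM (233 to 1581) in low-score cells, lower in 18 of 22 pairs, by -0.40 ± 0.081 (adjusted p = 5.88e-05 by edgeR). IFIT1 (chr10:89392546-89406486) had 1.99 to 163 CPM (median 19.0) in mitotic cells and 1.38 to 33.8 CPM (median 12.9) in low-score cells, with a log2 fold change of 1.11 ± 0.202 (adjusted p = 1.03e-05 by edgeR). It was higher in only 14 of 22 pairs.

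The antiviral list as a whole was farthest above the low-score level in HTO2/HTO9 and HTO4/HTO8, by 0.78 and 0.60 on the log2 scale, and there its counts were unevenly spread over the mitotic cells. The median cell ran the other way, at 1202 CPM in mitotic cells and 1467 CPM in low-score cells of HTO2/HTO9, and at 1444 CPM in mitotic cells and 1627 CPM in low-score cells of HTO4/HTO8. In HTO4/HTO8 the 16 mitotic cells held 28 UMIs of IFIT1, 20 of them in 1 cell, and the 67 low-score cells held 4. In HTO2/HTO9 the mitotic cells held 68 UMIs of IFIT1, detected in 13 of 30 cells with at most 16 in 1 cell, and the low-score cells held 34, detected in 12 of 102 cells. IFIT3 in HTO4/HTO8 had 67 UMIs in mitotic cells, 47 of them in 1 cell, and 13 UMIs in low-score cells. These cultures were low in the interferon gamma list, at 607 and 735 CPM over all kept cells.

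Among NF-κB genes 6 of 25 tested rose and SOD2 fell, 28.0% in all against 32.9% of all genes. BCL3, a nuclear IκB protein (chr19:44747705-44760044), had a median of 31.9 CPM (3.33 to 89.1) in mitotic cells and 20.3 CPM (0.957 to 51.0) in low-score cells, higher in 20 of 22 pairs, with a log2 fold change of 0.71 ± 0.113 (adjusted p = 5.71e-07 by edgeR). BIRC2, an inhibitor of apoptosis, rose by 0.49 ± 0.083, with a median of 78.4 CPM in mitotic cells and 47.1 CPM in low-score cells. BIRC3 rose by 0.32, but its adjusted p was 0.218 with DESeq2. NFKBIA, the direct feedback inhibitor, had a median of 184 CPM in mitotic cells and 183 CPM in low-score cells and did not pass. SOD2, the mitochondrial superoxide dismutase, fell by 0.18 on the log2 scale and had a log2 fold change of 0.073, not called, with cells thinned to 3000 UMIs. It also lost its call in 7 further of 13 alternatives, among them the top 5% of cells (adjusted p = 0.991), the stricter cell filter (0.918) and pairs with at least 10 mitotic cells (0.50). SOD2 lost it too when any 1 of HTO5/HTO8, HTO1/HTO9, HTO3/HTO9, HTO6/HTO9, HTO1/HTO10, HTO7/HTO10 and HTO8/HTO10 was left out (log2 fold change up to -0.12, adjusted p up to 0.157).

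Of 11 tested cytokine genes, CXCL1 and CXCL8 rose and IL1B and IL32 fell (36.4%, against 32.9% of all genes). CXCL1, a neutrophil chemokine, had 0 to 585 CPM (median 40.7) in mitotic cells and 4.31 to 343 CPM (median 25.7) in low-score cells, higher in 12 pairs and lower in 10, with a log2 fold change of 0.63 ± 0.095 (adjusted p = 1.41e-07 by edgeR) although the cultures were divided in direction. With DESeq2 neither CXCL1 nor CXCL8 was called (adjusted p = 0.483 and 0.761). IL32 was lower in 17 of 22 pairs, by -0.35 ± 0.063. Acute phase genes gave 3 lower of 8 tested (37.5%), SAA1, SAA2 and LCN2, and none higher. With the top 5% of cells SAA1 and SAA2 were not called (adjusted p = 0.0629 and 0.148), nor was SAA1 with thinned cells (0.154).

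Of 17 heat shock genes tested, 11 rose, HSPE1, the mitochondrial co-chaperonin, fell and 5 did not pass. In all 70.6% were called, against 32.9% of all genes, and the list's summed level was higher in mitotic cells in 22 of 22 pairs (median log2 difference 0.20, from 0.035 to 0.62). HSPA8, the constitutive HSP70 chaperone (chr11:123057489-123063230), had 591 to 2310 CPM (median 1803) in mitotic cells and 333 to 1658 CPM (median 1264) in low-score cells. It was higher in mitotic cells in 22 of 22 pairs, although the ranges over all pairs overlapped, by 0.46 ± 0.036 (adjusted p = 2.75e-17 by edgeR). HSP90AA1 rose by 0.21 and DNAJA1, an HSP40 co-chaperone, by 0.29, while HSPD1 and HSP90AB1 had log2 fold changes of 0.01 and 0.04 and did not pass.

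Genes of G1 control and arrest did not move together. CCND1, cyclin D1 (chr11:69641087-69654474), had 482 to 850 CPM (median 680) in mitotic cells and 322 to 581 CPM (median 490) in low-score cells, higher in 22 of 22 pairs, by 0.48 ± 0.040 (adjusted p = 2.27e-16 by edgeR). GADD45A, a stress gene of the G2 checkpoint, had a median of 77.1 CPM in mitotic cells and 131 CPM in low-score cells and was lower in 20 of 22 pairs, by -0.79 ± 0.065 (adjusted p = 1.37e-16 by edgeR). CDKN1A (p21) and CCND3 fell and BTG1 rose. With 12 genes of this list tested, 41.7% were called, against 32.9% of all genes. The TNF receptor TNFRSF1A rose by 0.39 ± 0.068 and the lymphotoxin receptor LTBR by 0.29 ± 0.060, of 8 receptor and kinase genes tested (25% called). LTBR was not called with the stricter cell filter or thinned cells (adjusted p = 0.115 and 0.403), and BTG1 not with thinned cells (adjusted p = 0.543).

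Short-lived transcripts were unequal as well. Of 8 tested immediate early genes none rose and 3 fell (JUND, DUSP1, MAFF), 37.5% against 32.9% of all genes. DUSP1 lost its call without any 1 of HTO3/HTO10, HTO5/HTO10 and HTO6/HTO10 (adjusted p up to 0.0558). MAFF lost it without any 1 of HTO2/HTO8, HTO3/HTO9, HTO7/HTO9, HTO1/HTO10, HTO3/HTO10, HTO4/HTO10, HTO5/HTO10 and HTO7/HTO10 (adjusted p up to 0.0749). JUND, an AP-1 subunit, had a median of 19.7 CPM (9.65 to 50.5) in mitotic cells and 34.9 CPM (18.9 to 76.8) in low-score cells, lower in 20 of 22 pairs, by -0.84 ± 0.108 (adjusted p = 2.13e-09 by edgeR). FOSL1 and JUN did not pass, with log2 fold changes of -0.03 and -0.07. Of 14 cell death genes, RIPK1 and PMAIP1 rose and CASP4, an inflammatory caspase, was lower in 21 of 22 pairs, by -0.40 ± 0.062. These calls were 21.4% of the list, against 32.9% of all genes. CASP4 was not called with thinned cells (adjusted p = 0.137), nor RIPK1 with the stricter filter (adjusted p = 0.311), the top 5% of cells (0.083), all other cells in place of the low-score cells (0.0727) or no filter on low counts (0.0858).

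**Figure D5:**
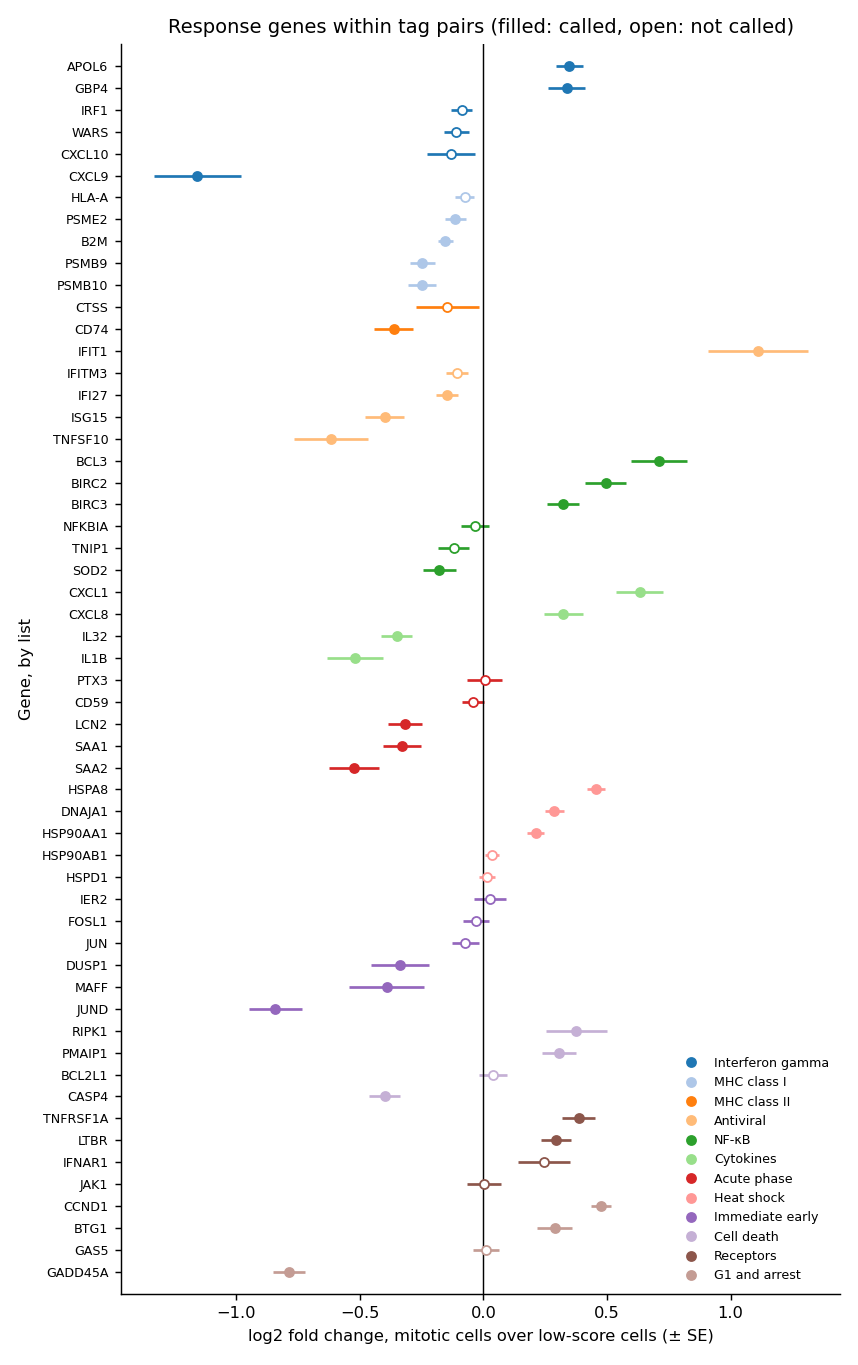
Log2 fold change of mitotic cells over low-score cells with its standard error (edgeR with tag pair as block, 22 pairs) for the response genes named by the fixed rule, coloured by list, filled where the adjusted p was under 0.05. CXCL9 at -1.16 and IFIT1 at 1.11 lie farthest out, and the 5 heat shock genes shown lie at or above 0.

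Outside the lists, the genes with the widest changes included BORA and HJURP among those higher in mitotic cells. BORA, an activator of AURKA, had a median of 29.6 CPM in mitotic cells and 5.70 CPM in low-score cells (log2 fold change 2.30 ± 0.151), and HJURP, which loads the centromeric histone, 185 CPM in mitotic cells and 42.1 CPM in low-score cells (2.17 ± 0.080). The linker histone HIST1H1E fell by 3.54 on the log2 scale. ANKRD1 and CCN2, targets of the YAP coactivators, were also among the 8 widest falls. ANKRD1 had a median of 19.3 CPM in mitotic cells and 57.0 CPM in low-score cells (-1.55 ± 0.127, lower in 19 of 22 pairs), and CCN2 11.6 CPM in mitotic cells and 36.6 CPM in low-score cells (-1.41 ± 0.129, lower in 20 of 22 pairs). CLDN4, a tight junction protein on the list of epithelial markers, rose by 1.16, while EPCAM, KRT8 and KRT19 fell. Of 6 epithelial markers tested 66.7% were called, against 32.9% of all genes.

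Whether the difference between the classes changed with the culture's response was tested by its slope on the interferon gamma level of the same culture, measured in the cells of neither class. No gene was called (0 of 7174, 0%, by edgeR, the 10 score genes included), with 535 genes at an unadjusted p under 0.05. DESeq2 called 12, among them the score gene TPX2 and TOP2A, BIRC5 and PRC1 of the further G2 and mitosis genes. The lowest p-values for a positive slope were those of AKAP12 (0.22), INTS14, BIRC5, TOP2A and CCN2 (0.45). For a negative slope they were those of IFIT3 (-0.40), IFIT1 (-0.50), RPL10, NAV2 and RPL19, in log2 units per log2 unit of level. The slopes of TPX2, BIRC5, TOP2A and PRC1 are no independent test, because these genes chose the cells or followed the score. Low-score cells of HTO3/HTO9, the pair highest in interferon gamma genes, had a summed score level of only 282 CPM. The median of low-score cells over the 22 pairs was 1033 CPM. How much of these slopes follows from the choice of cells was not tested. With the 18 pairs that held at least 10 mitotic cells, 8 genes were called, among them CXCL8 (0.58), IDO1 (0.49), CXCL10 (0.44) and CD74 (0.43) with a positive slope and IFIT3 (-0.48) and ISG15 (-0.26) with a negative one. That cut left out HTO8/HTO9 and the pairs with the highest interferon gamma levels over all kept cells. These were HTO3/HTO9, HTO5/HTO8 and HTO4/HTO9, at 19743, 16992 and 14703 CPM, so the slopes cover a narrower range of levels.

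In HTO7/HTO10, HTO1/HTO10 and HTO6/HTO10, single low-score cells held much of the CXCL10 counts, and in HTO7/HTO10 of the IDO1 counts. The highest low-score cell held 6 of 15 IDO1 UMIs in HTO1/HTO10 and 8 of 20 in HTO6/HTO10. CXCL8 was mixed, with few UMIs. The highest low-score cell held 6 of 11 in HTO1/HTO10, 1 of 6 in HTO7/HTO10 and 3 of 21 in HTO6/HTO10. In HTO7/HTO10, 1 low-score cell held 36 of the 56 CXCL10 UMIs of its class and 1 held 51 of 65 IDO1 UMIs, while the 56 mitotic cells held 11 and 9 UMIs of these genes. In HTO1/HTO10, 1 low-score cell held 46 of 76 CXCL10 UMIs, and the 36 mitotic cells held 11. In HTO6/HTO10, 1 low-score cell held 43 of 84 CXCL10 UMIs, and the 39 mitotic cells held 7. The part of these cells in the slopes was not tested. Single cells were not looked at for these genes in HTO4/HTO8 and HTO2/HTO9, which were also low in the interferon gamma list. CXCL10 was higher in mitotic cells of both, at 16.2 and 28.8 CPM, against 12.4 and 18.5 CPM in their low-score cells.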

How the data were processed

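Per the labels, the 4 libraries come from 1 pool of OVCAR5 cells. The authors deposited raw UMI counts of 36602 genes and 10 hashtags in 10660 barcodes, and per the file headers these came from Cell Ranger 5.0.1. The submitters' processing notes give version 2.1.1 of that tool, with GRCh38 as the build. Which annotation was used is not given in the sources used here. Coordinates of genes came from GENCODE 29, matched by gene identifier for 34616 of 36602 genes.

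The members and gene lists were chosen with earlier results of these data known. Of 416 list entries 415 were found. A barcode was given the pair of its top tags where the next tag was at least 3 times lower, and pairs with at least 100 barcodes were in use. No doublet caller was run, and the tag margin removes only doublets of cells from different cultures with tags at like levels, while those within a culture remain. Both gene libraries are in 1 matrix whose barcodes carry no sample name, so the part of each library in a cell is not known.

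Counts were summed per tag pair and class with at least 5 cells (83814 to 870766 UMIs in mitotic cells, 751164 to 2139089 in low-score cells), which left out HTO6/HTO8 and HTO7/HTO8, and fitted in edgeR 4.0.16 (R 4.3.3) with TMM scaling, the filterByExpr filter and the tag pair as block. DESeq2 1.42.0 was an alternative. Both classes of a pair come from the same culture, which is why the pair is a block. Log2 differences of list levels used a pseudocount of 10 CPM. On 1 set of simulated data over 7174 genes, the comparison recovered 81.0% of changes of 0.5 and 89.0% of changes of 1 on the log2 scale. It made 9 false calls over both sizes together. The slope test recovered 83.5% of slopes of 0.4, with 6 false calls. For the comparison 100 genes of each size were changed, by the same amount in every pair, while 32.9% of genes were called in the data. The simulation does not cover changes that differ in direction between cultures.

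Named genes are the score genes, the 3 highest and 3 lowest in p of each response list, the highest and widest of the cell cycle lists, the 8 widest called changes each way among other genes with at least 20 CPM and the 5 lowest slope p-values each way. Genes counted in a list are also named where few passed, and IDO1 and the epithelial and T cell markers were named after their values were seen.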

Additional observations from a re-analysis of the deposited data

Results flagged for a closer look

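Cells outside the comparison also reached the score of mitotic cells. Of the cells with KRT81 at 500 CPM or more, which the rule leaves out, 3.36% did (8 of 238, exact binomial 95% interval 1.46 to 6.52%, against 1.26% for a count of 3), at a median depth of 18553 UMIs. Of the barcodes with a mitochondrial share over 20%, 2.56% did (30 of 1173, 1.73 to 3.63%), at a median of 4544 UMIs. Of kept cells with no clear tag pair, 4.75% were mitotic (48 of 1011, 3.52 to 6.25%), against 11.0% of cells with a pair (569 of 5159), at median depths of 16645 and 13156 UMIs. The cells with high KRT81 or a high mitochondrial share are in no class. The kept cells with no clear tag pair count in the classes, the score cut and the pooled marker values, but enter no comparison within tag pairs.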

How the results depend on the processing

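Counts of genes higher in mitotic cells fell to 216 with cells thinned to 3000 UMIs (2359 genes tested) and to 583 with the stricter cell filter, against 1161. Counts of genes lower were 216 and 545 with these settings, 708 with the top 5% of cells, 766 with no replicate block (873 higher) and 1859 with no filter on low counts (864 higher), against 1199. Without scaling the split was 1341 higher and 966 lower. The cause was not tested beyond the fewer genes or cells that thinning and the stricter filter leave. Leaving out 1 tag pair at a time gave 1049 to 1178 higher and 1112 to 1259 lower. The tag pair pairs both classes of 1 culture by its label, and without that block 26 named genes lost their call and BTG1 turned to -0.013.

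The slope count of 0 became 12 with DESeq2, 2 with the NF-κB level, 1 with the top 20% and, in settings added after seeing the data, 8 with at least 10 mitotic cells a pair, 1 with the top 5%, 57 with classes drawn within each tag pair and 4 with the stricter filter, and it was 0 to 2 without 1 pair. Score genes, whose values chose the cells, were among the 12 (TPX2) and the 57 (CCNB1, PLK1, CENPF, TPX2, HMMR and DLGAP5). Of the further G2 and mitosis genes, which followed the score, TOP2A and BIRC5 were among the 12 and the 57. PTTG1 of the same list was among the 2. Slopes of these genes are no independent test either. The median share was 20.4% with the top 20%, and the highest share 14.0% with the top 5% and 46.0% with the top 20%, which follow from the wider or narrower class. HTO3/HTO8 replaced HTO7/HTO10 as the highest with the top 5% and with thinning. Median list differences moved by less than 1 SD between pairs in every setting run. PSME2 turned to 0.061 with the stricter filter and SOD2 to 0.073 with thinning. Of 894 values of 72 named genes, 799 kept their side of the threshold, 65 lost the call, 27 gained one and 3 called values turned. Of the 799, 44 uncalled values changed sign, in 15 genes, IRF1 and CXCL10 among them (log2 fold changes of -0.19 to 0.039).

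GBP4, BIRC3, CXCL1, CXCL8, DUSP1 and TNFSF10 were not called by DESeq2. SOD2, MAFF, DUSP1 and PSME2 lost their call without single tag pairs. Mitotic cells of a pair held as few as 83814 UMIs, and 11 of 13 MHC class II genes had too few counts to be tested.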
